A study of Mus musculus with 10 samples.

Results

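DNA methylation in spermatozoa was examined at 9 genes whose products write, maintain or remove it, namely Dnmt1, Uhrf1, Dnmt3a, Dnmt3b, Dnmt3l, Tet1, Tet2, Tet3 and Tdg. The genes were chosen by name, as 9 of the 55450 genes in GENCODE for mm10, and all CpG sites from 2 kb upstream to the gene end were taken. At these genes 1196 CpG sites had at least 10 reads in at least 1 animal, of 1342754 in the genome, and 830 of 904364 had them in all 10 animals. Reduced representation bisulfite sequencing (RRBS) cuts DNA at the sequence CCGG with the enzyme MspI, keeps short fragments, and reads unmethylated cytosines as thymine after bisulfite conversion. The methylation level is the percentage of reads at a CpG site that were read as methylated.

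DNA methyltransferases transfer a methyl group to the cytosine of CpG dinucleotides, either copying the pattern of the parental strand after replication or setting it anew, as happens in male germ cells before birth. TET dioxygenases oxidise 5-methylcytosine, and thymine DNA glycosylase excises some of the oxidised products. Decitabine is a cytidine analogue that is built into DNA and traps DNA methyltransferases on it.

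The animals were C57BL/6 male mice, and each gave 1 library of spermatozoal DNA. In the P-generation, 2 vehicle-control animals (C8 and C14) received 7.5% DMSO in PBS and 3 decitabine treated animals (D10, D11 and D13) received 0.1 µg decitabine per g body weight in that vehicle, by 3 intraperitoneal injections per week over 7 weeks from an age of 7 weeks. The F3-generation, bred through the male line with untreated wild type females and itself untreated, comprised 2 animals of the vehicle lineage (F3C9 from C8, F3C30 from C14) and 3 of the decitabine lineage (F3D1 and F3D31 from D10, F3D7 from D11). The study chose these animals out of larger groups, and related animals are not independent of each other.

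Coverage summed over all listed CpG cytosines lay between 48903817 in D13 and 115158278 in F3D1. A read counts there once for each CpG cytosine it covers, so these sums are not numbers of reads. The median coverage at the 830 sites of the 9 genes was between 40.0 and 92.5 reads per animal. As a check of the cell type, promoters of germ-cell genes, which are methylated in somatic cells, had mean levels of 11.9% to 29.8% over 174 sites of 7 measured genes of 9 listed. They were at 29.8% in C8 and 14.2% in C14, and at 20.4% to 26.5% in the 3 decitabine treated animals. Not every gene followed this mean. Mael (9.89% in C8) and Sycp3 (18.8% in C8) were lower in C8 than in each decitabine treated animal, and the other measured genes were higher. Promoters of maternally methylated imprinted genes (52 sites, 5 measured of 8 listed names, with Plagl1 listed also as Zac1) lay between 6.0% in C14 and 18.6% in C8. Of these 5, only Kcnq1ot1 was lower in C8 (0%) than in C14 (7.96%). The 2 sites upstream of H19, methylated in spermatozoa, lay between 84.6% and 100.0%. The part of these differences between animals in the values below was not tested.

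Animal C8 stood apart from the others. Among CpG sites of intermediate level in the other 9 animals, 12.99% were read as exactly 0% or 100% in C8, against 0.22% to 1.64% in the others. At the 9 genes this held for 10 of 50 such sites in C8 and for at most 1 site in any other animal. Of the sites of high level at the 9 genes, 73.8% were read as exactly 100% in C8, against 28.9% to 50.6% in the others. Values of the P-generation are therefore given with and without C8 where they rest on it.

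Along the 9 genes, unmethylated starts alternated with methylated gene bodies. Of the 830 sites, 606 (73.0%) had a mean level below 20%, 172 (20.7%) were above 80% and 52 (6.27%) lay between. Over all CpG sites in the genome these shares were 66.1%, 22.5% and 11.4%. Of the 606 low sites, 581 (95.9%) lay within 1 kb of an annotated start of a protein-coding transcript, compared with 13 of the 172 high sites. The sequence around low sites was dense in CpG, with a median of 27.0 CpG dinucleotides within 100 bp, against 6.0 around high sites and 5.5 around intermediate ones. Coding exons held 81 high, 9 intermediate and 8 low sites.

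**Figure D1:**
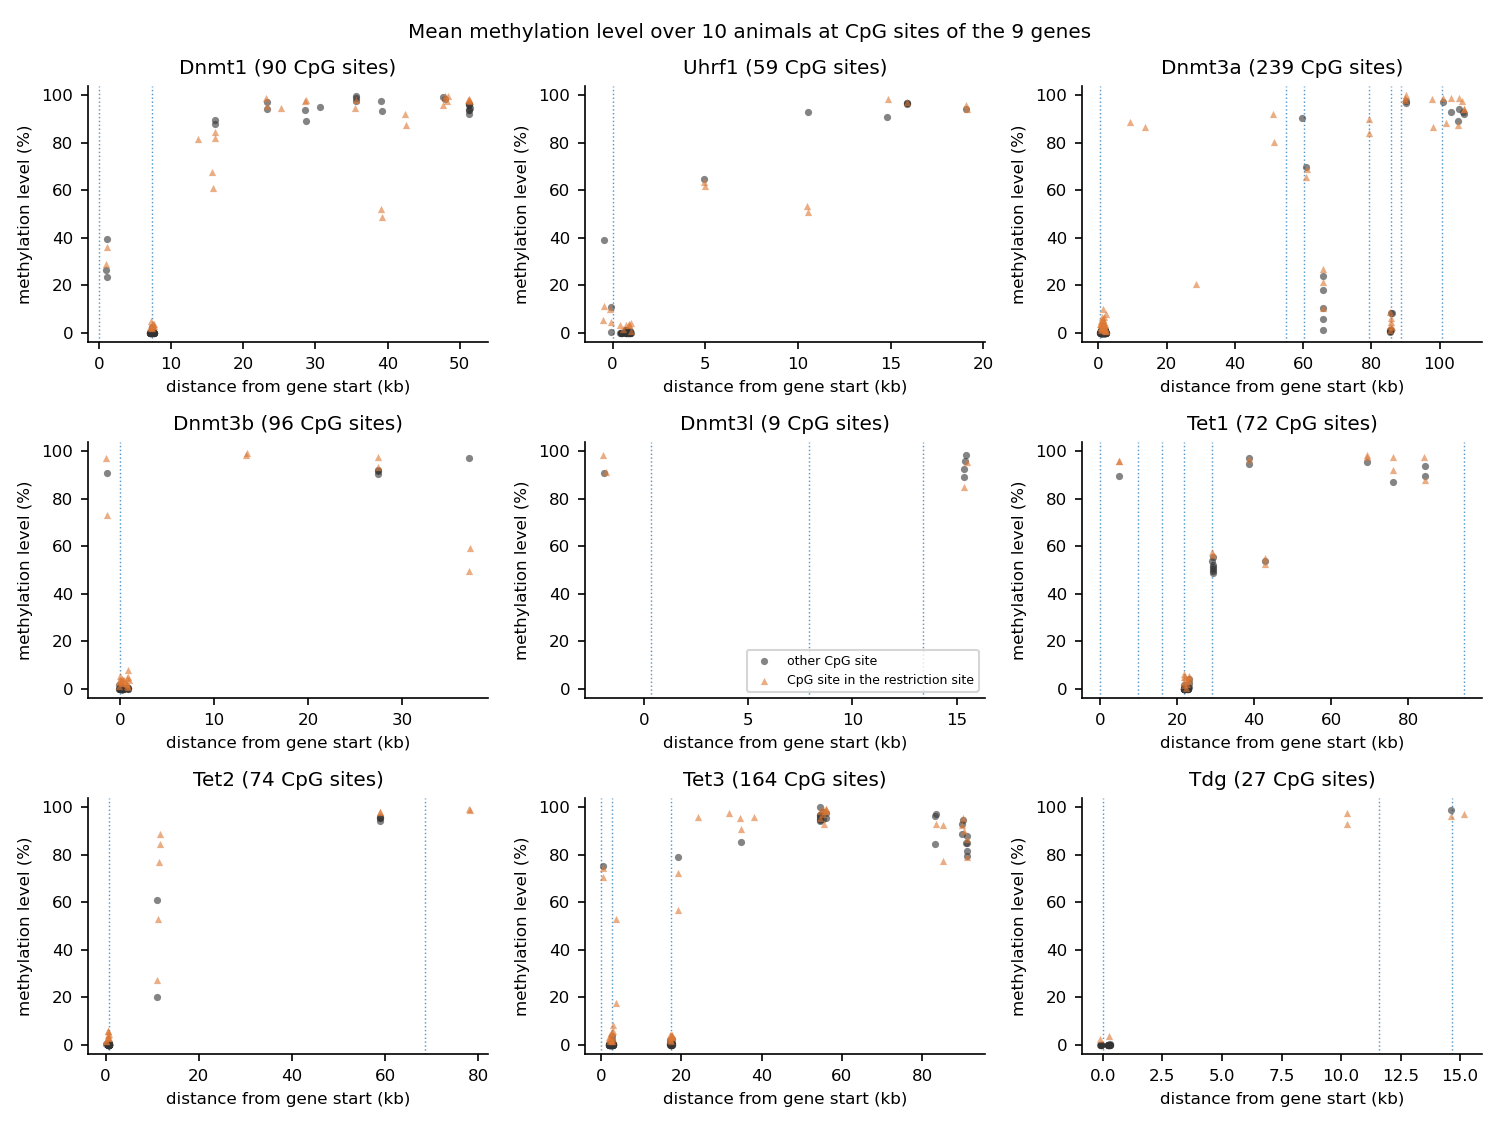
Mean methylation level over the 10 animals (y axis, %) of each of the 830 CpG sites against its distance from the start of the gene record (x axis, kb) in the 9 genes. Triangles mark CpG sites inside the MspI restriction site, circles other sites, and dotted lines annotated starts of coding transcripts. Low sites gather at some of the starts, the 9 sites of Dnmt3l are all high, and a group of 9 Tet1 sites lies near 53%.

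The starts at which low methylation was found differed from gene to gene. Levels are given as the mean over the CpG sites within 500 bp of an annotated start, with the SD over the 10 animals. Dnmt1, the maintenance methyltransferase (chr9:20907209-20959888, minus strand), had 39 sites at the starts of 3 coding transcripts 6909 to 7283 bp inside the gene record, at 0.77% ± 0.24 (SD, n = 10). No site within 500 bp of the outermost start of its gene record reached 10 reads in all animals. Uhrf1, which binds hemimethylated CpG sites and brings Dnmt1 to them (chr17:56303321-56323486, plus strand), had 43 sites at 2.32% ± 0.78 (SD, n = 10).

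Among the de novo enzymes, Dnmt3a (chr12:3806007-3914443, plus strand) had 142 sites at its first starts, with 0.71% ± 0.26 (SD, n = 10). Its internal start 85721 bp into the gene, from which the shorter form Dnmt3a2 is transcribed, had 13 sites at 3.54% ± 2.71 (SD, n = 10). C8 was at 10.9% there and the other 9 animals were between 1.71% and 4.16%. The other measured starts of Dnmt3a had mean levels between 87.2% and 98.3%. Dnmt3b (chr2:153649450-153687730, plus strand) had 71 sites at 0.61% ± 0.20 (SD, n = 10). Dnmt3l, which has no enzyme activity of its own and stimulates Dnmt3a and Dnmt3b, is known from male germ cells (chr10:78041947-78063622, plus strand). Its starts held no site with 10 reads in all 10 animals, and its 9 sites measured in all animals lay elsewhere and had means above 80%. At 4 intronic sites 183 to 364 bp from its start, 8 animals had at least 10 reads, without C8 and F3D31, and the means over these 8 were between 40.0% and 81.2%.

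The 160 bases before 3 of these starts are shown as examples of promoter sequence of the de novo enzyme Dnmt3b, the short form of Dnmt3a and the partner of Dnmt1. They were read from the RefSeq GRCm38.p6 assembly (mm10 coordinates, plus strand), and capitals mark the CpG sites measured in all 10 animals.
Dnmt3b, chr2:153649290-153649449: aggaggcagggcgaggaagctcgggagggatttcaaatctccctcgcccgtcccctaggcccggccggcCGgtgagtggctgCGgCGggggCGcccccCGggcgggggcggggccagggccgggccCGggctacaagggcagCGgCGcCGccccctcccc
Dnmt3a2, chr12:3891568-3891727: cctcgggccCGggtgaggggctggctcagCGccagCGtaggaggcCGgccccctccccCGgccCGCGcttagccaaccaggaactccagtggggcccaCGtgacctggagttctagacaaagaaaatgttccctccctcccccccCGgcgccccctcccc
Uhrf1, chr17:56303161-56303320: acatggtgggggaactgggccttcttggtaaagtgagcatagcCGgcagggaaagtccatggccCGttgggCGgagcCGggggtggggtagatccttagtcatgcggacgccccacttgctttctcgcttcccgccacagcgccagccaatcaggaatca
The stretch of Dnmt3b held 18 CpG dinucleotides, of which 9 were measured, that of Dnmt3a2 held 11 with 9 measured, and that of Uhrf1 held 9 with 4 measured.

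Among the erasers, Tet1 (chr10:62804570-62908996, minus strand) had 26 sites at 0.89% ± 0.37 (SD, n = 10) at the starts of 2 transcripts 21484 to 21672 bp inside the gene record. Tet2 (chr3:133463679-133545139, minus strand) had 59 sites at 0.64% ± 0.25 (SD, n = 10). Tet3 (chr6:83362373-83459084, minus strand) had low starts 2692 bp and 17409 bp inside the gene record, with 57 sites at 0.86% ± 0.27 and 44 sites at 1.07% ± 0.38 (SD, n = 10). Tdg (chr10:82629828-82650799, plus strand), the glycosylase that follows TET oxidation, had 22 sites at 0.28% ± 0.25 (SD, n = 10) at its first starts. Another start of Tdg, 14650 bp inside the gene record, had 2 sites at 97.6% ± 3.84 (SD, n = 10).

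Tet1 also had a start at which the sites were neither low nor high. Within 500 bp of the start of Tet1-201, 28982 bp inside the gene record, 9 sites in a coding exon had a mean of 52.8% ± 5.41 (SD, n = 10). The level was 42.4% in C8 and 54.2% in C14, and 59.3% in D10, 49.2% in D11 and 53.7% in D13. In the F3-generation the vehicle lineage was at 57.8% (F3C9) and 56.8% (F3C30), and the decitabine lineage at 51.5% (F3D1), 46.6% (F3D7) and 56.8% (F3D31). The groups overlapped in both generations, and each of the 9 sites had a mean between 48.8% and 57.5%. Decitabine minus vehicle in the P-generation was 5.76 percentage points, and -0.13 without C8.

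Other stretches of intermediate level lay outside the low starts. A group of 5 Dnmt1 sites 993 to 1109 bp inside the gene record, in an intron, had a mean of 30.9% ± 8.22 (SD, n = 10). It was at 18.7% in C8, 38.8% in C14, 35.6% in D10, 16.0% in D11 and 37.5% in D13, and between 25.6% and 38.6% in the F3-generation. Animals of the same group therefore differed as much as those of different groups. In C8, 3 of the 5 sites had 0 of 14 reads methylated, which allows a level of up to 21.4%, while the other animals lay between 9.09% and 61.9% at these sites. At 3 intronic sites of Tet2, 10973 to 10988 bp from its start, C8 had 0 of 12 reads methylated at each, allowing up to 25%, and the group mean was 27.5% to 50.4% in the other 9 animals. Intervals and limits of this kind cover counting error only, since PCR copies were not told apart.

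The sequences of 3 stretches of intermediate level are shown because they carry the levels described above for Dnmt1 and Tet1 and below for Tet3. They are given on the strand of the gene in GRCm38.p6, and capitals again mark CpG sites measured in all 10 animals.
Dnmt1, chr9:20958774-20958901, minus strand: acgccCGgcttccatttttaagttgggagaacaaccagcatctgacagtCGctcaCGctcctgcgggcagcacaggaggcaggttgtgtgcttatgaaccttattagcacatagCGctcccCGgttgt
Tet1, chr10:62879786-62879885, minus strand: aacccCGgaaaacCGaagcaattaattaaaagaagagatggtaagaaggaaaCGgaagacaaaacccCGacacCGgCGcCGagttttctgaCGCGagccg
Tet3, chr6:83458452-83458525, minus strand: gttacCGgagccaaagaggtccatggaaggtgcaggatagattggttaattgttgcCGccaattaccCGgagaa
The Dnmt1 stretch held 7 CpG dinucleotides, the Tet1 stretch 10 and the Tet3 stretch 3, and each contained CCGG at 2 places.

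The comparison of decitabine treated with vehicle-control animals asked whether the drug's own targets and their counterparts were differentially methylated in spermatozoa. Promoters within 1 kb of the gene record's start and gene bodies were compared apart, as the mean over those sites that had 10 reads or more in all 5 animals compared. In the P-generation, limma called 0 of the 6 promoters with at least 3 sites and 0 of the 9 gene bodies at an adjusted p under 0.05, and 0 of them had an unadjusted p under 0.05. Over all genes it called 0 of 18621 promoters and 0 of 15458 bodies (0% of each), with 5.47% and 5.61% at an unadjusted p under 0.05. An exact permutation test of 2 against 3 animals cannot give a p below 0.1.

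The promoter of Uhrf1 was at 2.17% in C8 and 2.22% in C14, and at 2.32% in D10, 0.73% in D11 and 1.18% in D13. D10 lay with the vehicle-control animals, and the mean difference was -0.78 percentage points (exact permutation test, two-sided, p = 0.4; limma, log2 difference -1.22 ± 0.58 (SE), adjusted p = 0.854). The promoter of Dnmt3a was at 0.80% in C8 and 0.53% in C14, and at 0.39%, 0.47% and 0.43% in D10, D11 and D13. This was the 1 promoter of 6 whose groups did not overlap, lower in decitabine treated animals, as were 14.1% of promoters over all genes, while 0 of the 6 lay higher (6.39% over all genes). Its difference of -0.24 points was -0.10 without C8.

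Dnmt3b, Tet2 and Tdg had promoter means below 1.4% in all 5 animals, with overlapping groups. The 3 measured sites near the start of the Tet3 gene record were at 41.7% in C8 and 68.2% in C14, and at 68.0%, 76.7% and 79.8% in D10, D11 and D13. The groups overlapped, and the difference of 19.9 points fell to 6.59 without C8. The single measured promoter site of Dnmt1 ranged from 0% in C8 (0 of 14 reads) to 61.9% in D13, and its difference went from 14.7 points to -4.09 without C8.

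Gene bodies were between 17.5% and 98.9% methylated in single animals of the P-generation, and were lowest in Dnmt3a, Tet3, Tet1 and Dnmt1, whose bodies include low internal starts. The body of Dnmt3a, with 188 sites, was at 18.9% in C8 and 18.7% in C14, and at 17.8% in D10, 17.7% in D11 and 17.5% in D13. The 3 decitabine treated animals lay below both vehicle-control animals, with a difference of -1.16 percentage points (18.83% ± 0.17, SD, n = 2, against 17.67% ± 0.13, SD, n = 3; exact permutation test, p = 0.1, the smallest possible) and of -1.04 points without C8. limma gave an adjusted p of 0.99. This was 1 of 9 bodies without overlap and lower, against 14.5% over all genes, and 0 of 9 were higher, against 4.81%.

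The bodies of Dnmt1 (48.5% ± 2.03 in vehicle-control and 48.6% ± 1.30 in decitabine treated animals, SD) and Tet1 (30.90% ± 0.41 and 30.88% ± 1.01, SD) had the smallest differences of these means, 0.14 and -0.02 points. Without C8 these 2 differences were -1.29 and -0.31 points at the same sites. By methylated reads over all reads of the region, with C8 kept, they were -2.02 and -1.21 points. For the body of Tet2, which varied most over the 10 animals of both generations, the difference of 2.71 points became -3.07 without C8. For the bodies of Uhrf1, Dnmt3b, Dnmt3l, Tet3 and Tdg the differences lay between -4.03 and -0.58 points and the groups overlapped. Without C8 they went at the same sites from -3.33 to -1.40 points for Dnmt3b, from -4.03 to -2.71 for Tdg and from -0.58 to -3.52 for Uhrf1. The median difference over the 9 bodies was -1.16 points and that over all 15458 bodies -0.50 points, and the medians over promoters were -0.16 and -0.10 points.

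In the F3-generation limma again called 0 of the 6 promoters and 0 of the 9 bodies, with 0 at an unadjusted p under 0.05, and 0% of 19336 promoters and 16296 bodies over all genes, of which 4.40% and 4.05% had an unadjusted p under 0.05. The Tdg promoter was at 0.45% in F3C9 and 0.11% in F3C30, and at 0.57%, 0.66% and 1.13% in F3D1, F3D7 and F3D31. It was the 1 of 6 promoters without overlap and higher in the decitabine lineage (11% over all genes), and 0 of 6 were lower (7.30%). All 5 values lay under 1.2%.

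Bodies without overlap in the F3-generation were those of Dnmt1 and Dnmt3l, higher in the decitabine lineage (2 of 9; 12.0% over all genes), and Tdg, lower (1 of 9; 6.76%). The Dnmt3l body, measured at 6 sites, was at 87.9% in F3C9 and 91.9% in F3C30, and at 93.1%, 93.6% and 96.0% in F3D1, F3D7 and F3D31, a difference of 4.32 points (exact permutation test, p = 0.1). In the P-generation the same 6 sites had differed by -3.90 points with overlapping groups. The 6 sites of the Tdg body were at 98.6% in F3C9 and 100.0% in F3C30, and at 97.8%, 98.0% and 94.7% in F3D1, F3D7 and F3D31, a difference of -2.44 points (exact permutation test, p = 0.2). The body of Dnmt1 differed by 0.33 points (51.51% ± 0.23, SD, n = 2, and 51.84% ± 0.06, SD, n = 3), and that of Dnmt3a, which had not overlapped in the P-generation, by 0.35 points with overlap. By methylated reads over all reads of the region, as limma counts them, the Dnmt1 difference was -0.79 points and the Dnmt3a difference -1.08 points. The difference between the generations was tested in limma over all 10 animals. It was called for 0 of 15 regions of the 9 genes and 0% of all regions, with 0 of the 15 at an unadjusted p under 0.05 against 5.57% of promoters and 5.56% of bodies over all genes. The Uhrf1 promoter had the smallest adjusted p, 0.859.

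**Figure D2:**
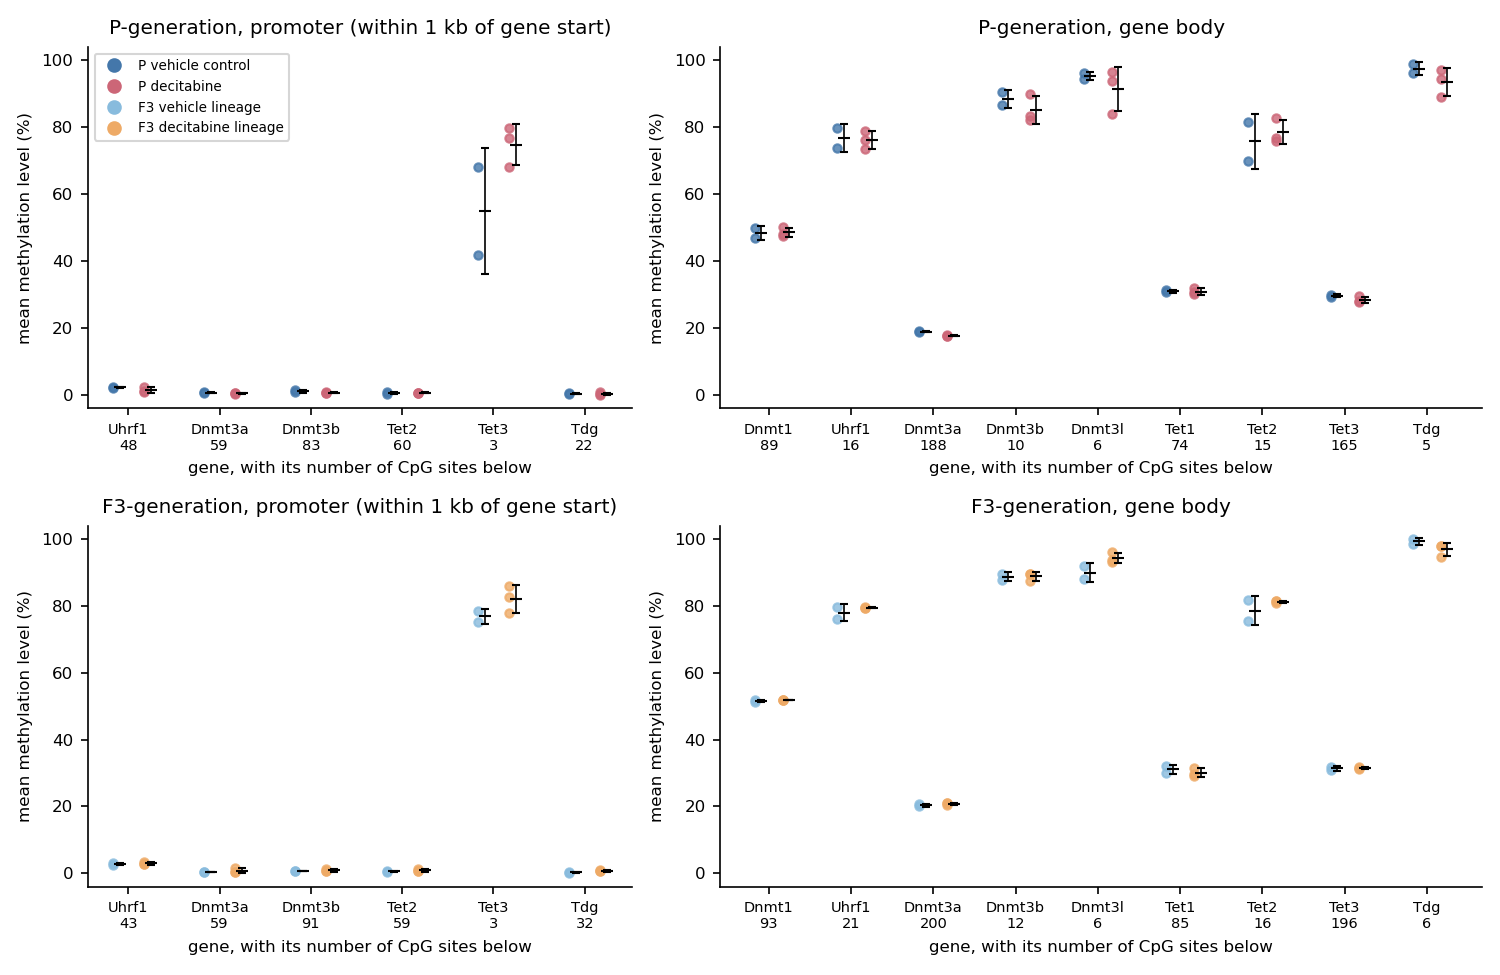
Mean methylation level (y axis, %) of promoters and gene bodies in each animal, with each gene's number of CpG sites under its name. Points are animals, bars the group mean and SD (n = 2 vehicle, n = 3 decitabine). Promoters lie near 0% except the 3 sites of Tet3, and the groups do not overlap in the bodies of Dnmt3a (P-generation) and of Dnmt1, Dnmt3l and Tdg (F3-generation).

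At single CpG sites, 850 sites of the 9 genes could be tested in the P-generation and 929 in the F3-generation. Differential methylation was called where the pooled reads differed by 25 percentage points or more with a Benjamini-Hochberg q-value under 0.01 from a logistic model, which has no term for variation between animals. In the P-generation 1 site (0.12%) was called, in Uhrf1 and hypomethylated, against 0.705% of 934227 sites. In the F3-generation 1 site (0.11%) was called, in Dnmt1 and hypermethylated, against 0.237% of 1054272 sites. limma per site, which uses the spread between animals, called 0 sites in either generation, with 43 (5.06%; 5.70% over all sites) and 28 (3.01%; 4.56%) at an unadjusted p under 0.05, and an F test with an overdispersion term called 0 sites.

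Most sites differed little. The difference was under 10 percentage points at 786 of 850 sites (92.5%) in the P-generation and at 888 of 929 (95.6%) in the F3-generation, against 89.9% and 93.1% over all sites. Groups did not overlap at 22 sites that were higher and 37 that were lower in decitabine treated animals (2.59% and 4.35%; 3.34% and 5.07% over all sites, together 8.41%). In the F3-generation 43 sites were higher and 24 lower without overlap (4.63% and 2.58%; 5.22% and 4.49% over all sites, together 9.71%). Of 830 sites tested in both generations, 9 did not overlap in the same direction (1.08%; 0.750% over all sites) and 3 in opposite directions (0.36%; 0.811%).

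The called Uhrf1 site lies 476 bp upstream of the gene start at position 56302845 of chromosome 17, between 2 CCGG sequences and outside both. It is shown with its surroundings (GRCm38.p6, chr17:56302815-56302876, plus strand, the called CpG in capitals).
Uhrf1, upstream site: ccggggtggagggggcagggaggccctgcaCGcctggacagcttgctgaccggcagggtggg
Its level was 37.5% in C8 (80 reads, 95% Wilson interval 27.7 to 48.5) and 49.5% in C14 (101 reads, 40.0 to 59.1). It was 27.6% in D10 (98 reads, 19.7 to 37.1), 9.52% in D11 (63 reads, 4.44 to 19.3) and 10.3% in D13 (78 reads, 5.29 to 18.95). All 3 decitabine treated animals were below both vehicle-control animals, with D10 nearest to them. The pooled difference was -27.0 points (q = 1.77e-06; limma, adjusted p = 0.865), and -32.4 without C8. It was -20.3 without C14, -24.3 without D11 and -23.7 without D13, under the size required for a call. In the F3-generation the site was at 42.0% in F3C9 and 45.6% in F3C30, and at 59.3%, 56.5% and 52.2% in F3D1, F3D7 and F3D31. The groups again did not overlap, in the opposite direction, by 13.1 points, which was not called (q = 0.0878). The mean of the site and its 2 neighbours within 50 bp differed by -13.04 points in the P-generation (-12.2 without C8) and by 3.41 points in the F3-generation, where the groups overlapped.

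The Dnmt1 site called in the F3-generation lies 15741 bp into the gene record, in an intron at position 20944147 of chromosome 9, and is itself part of a CCGG (GRCm38.p6, chr9:20944117-20944178, minus strand, the called CpG in capitals).
Dnmt1, intronic site: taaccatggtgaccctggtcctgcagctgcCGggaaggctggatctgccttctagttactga
It was at 42.0% in F3C9 (81 reads, 95% Wilson interval 31.8 to 52.8) and 50.0% in F3C30 (28 reads, 32.6 to 67.4). It was at 84.1% in F3D1 (82 reads, 74.7 to 90.5), 73.3% in F3D7 (45 reads, 59.0 to 84.0) and 63.4% in F3D31 (41 reads, 48.1 to 76.4). The decitabine lineage lay above the vehicle lineage by 32.2 points in the pooled reads (q = 5.47e-05; limma, adjusted p = 1.00). The Wilson interval of F3C30 overlapped those of F3D7 and F3D31, and that of F3C9 overlapped that of F3D31. In the P-generation C8 was at 42.3% and C14 at 54.8%, while D10 was at 53.8%, D11 at 51.4% and D13 at 92.6%, so that the groups overlapped. D13, the highest animal of the P-generation, had no descendant among the F3 animals sequenced. Without F3D1 the F3 difference was 24.6 points, under the size required for a call.

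**Figure D3:**
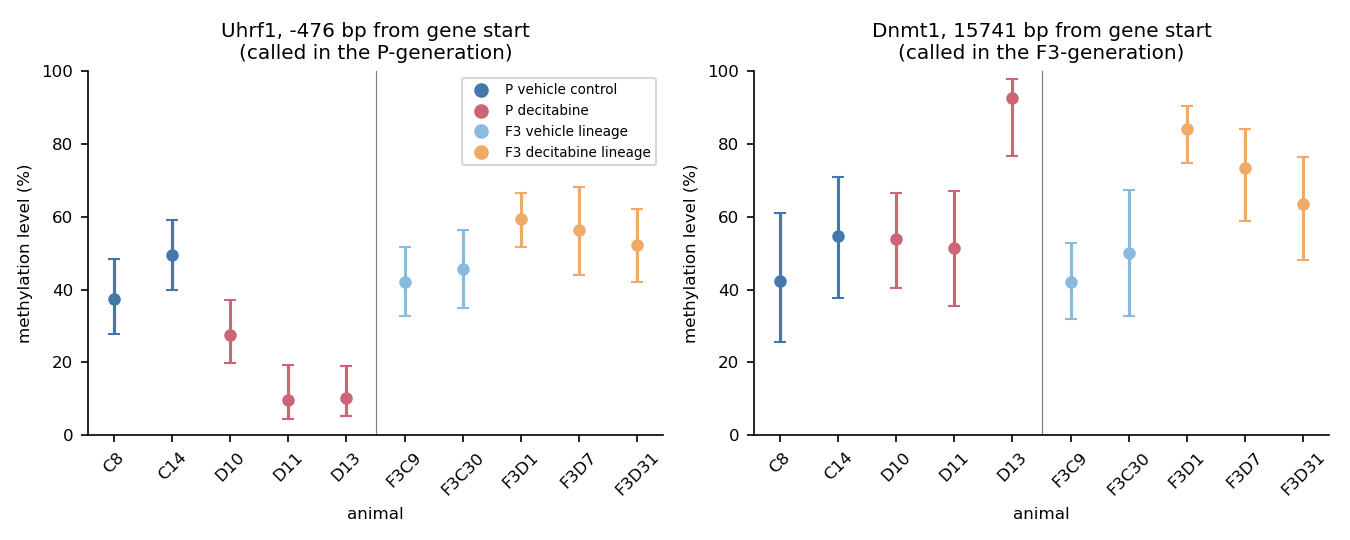
Methylation level (y axis, %) of the 2 called CpG sites in each of the 10 animals (x axis), with 95% Wilson intervals as bars. The Uhrf1 site is lowest in D10, D11 and D13, and the Dnmt1 site is highest in D13 and the 3 animals of the F3 decitabine lineage.

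The other sites named by rule had the largest differences among sites with at least 20 reads per animal and groups that did not overlap (44 such sites in the P-generation and 53 in the F3-generation). In the P-generation these were an intronic Dnmt1 site at chr9:20943769 (20.9 points), an intronic Tet3 site at chr6:83424294 (-19.5 points), an intronic Dnmt3a site at chr12:3871918 (-19.5 points) and the Tet1 exon site at chr10:62879832 (18.3 points). The Dnmt1 site was at 58.2% in C8, 82.8% in C14, 87.3% in D10, 90.4% in D11 and 98.5% in D13, and its difference was 8.39 points without C8 and 32.9 without C14. That of the Dnmt3a site was -12.0 points without C8, and that of the Tet1 site 10.6 without C8 and 31.5 without C14. In the F3-generation the Dnmt1 site was at 84.7% and 89.0% in the vehicle lineage and between 94.7% and 96.8% in the decitabine lineage, without overlap in the same direction. The Tet3 site was at 100.0% in C8 and 89.4% in C14, and at 75.3%, 68.8% and 85.4% in D10, D11 and D13. Its difference was -15.0 points without C8 and -25.6 without C14. In the F3-generation the Tet3 site was again without overlap, with the decitabine lineage higher by 3.19 points.

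In the F3-generation the sites named were intronic sites of Uhrf1 (chr17:56308287, 18.9 points) and Tet2 (chr3:133533785, 17.0 points), a site in a noncoding exon of Tet3 (chr6:83439895, 16.8 points) and one in a coding exon of Tet3 (chr6:83402974, 13.8 points). All 4 were higher in the decitabine lineage, and none reached a difference of 25 points. The last, at 100.0% in the 3 animals of the decitabine lineage, differed by 6.52 points without F3C9 and by 22.0 without F3C30. In the P-generation the groups overlapped at each of the 4. Like the called Dnmt1 site, the first 3 of these lie in a CCGG.

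Sites measured in all animals and at most 200 bp apart were joined into 88 stretches, single sites included. In the P-generation 2 stretches were higher and 12 lower without overlap, against 5.80% and 12.2% of 129937 stretches over the genome. In the F3-generation 8 were higher and 4 lower, against 10.5% and 8.18%, and 2 were apart in opposite directions in the 2 generations, against 1.89%. The 3 stretches below were chosen after their values were seen. In an intron of Dnmt3a, 65749 to 65911 bp from the gene start, 8 sites with means of 1.27% to 26.7% lay at 12.9% in C8 and 16.3% in C14, and at 9.51%, 10.9% and 8.06% in D10, D11 and D13. The decitabine treated animals were lower without overlap, with a difference of -5.10 points (exact permutation test, p = 0.1) and of -6.80 points without C8. In the F3-generation the stretch was at 20.8% and 18.5% in F3C9 and F3C30, and at 14.8%, 17.4% and 18.1% in F3D1, F3D7 and F3D31, again lower without overlap (difference -2.85 points; exact permutation test, p = 0.2). All 5 animals of the F3-generation were above D10, D11 and D13, and F3D1, the lowest of the 5, lay between C8 and C14. The stretch is shown because all of its 8 CpG dinucleotides were measured (GRCm38.p6, chr12:3871751-3871924, plus strand, measured CpG sites in capitals).
Dnmt3a, intronic stretch: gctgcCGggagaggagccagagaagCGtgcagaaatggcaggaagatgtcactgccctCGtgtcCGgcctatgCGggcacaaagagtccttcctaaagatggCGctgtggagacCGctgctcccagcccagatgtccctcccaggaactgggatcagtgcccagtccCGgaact

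At 2 sites in an untranslated exon of Tet3, 3718 to 3849 bp from the start, the vehicle-control animals were at 47.0% and 36.3% and the decitabine treated animals at 22.6%, 23.6% and 13.1%, a difference of -21.9 points without overlap (-16.6 without C8). In the F3-generation this difference was -1.12 points with overlap. At 3 sites of Uhrf1 4926 to 4966 bp from the start, in an intron, the F3 decitabine lineage was higher by 13.1 points without overlap (67.1% and 53.5% against 79.7%, 69.4% and 71.3%). The P-generation difference there was -2.00 points with overlap, and -11.9 points without C8, which was at 49.8% against 69.7% in C14.

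Sites inside CCGG, where MspI cuts, differed from the others in every animal. Among the low sites of the 9 genes, 125 lay in CCGG and had mean levels between 2.26% and 5.30% (median over the animals 3.69%). The 481 other low sites were between 0.22% and 0.44% (median 0.28%). The CCGG sites were higher in 10 of 10 animals (exact sign-flip test over animals, p = 0.00195, the smallest possible). Over the genome 134927 low CCGG sites were between 3.92% and 5.28% and 463282 other low sites between 0.62% and 0.98%. Of the 28 low sites of the 9 genes with a mean of 5% or more, 22 were in CCGG, as were 32 of the 52 intermediate sites.

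**Figure D4:**
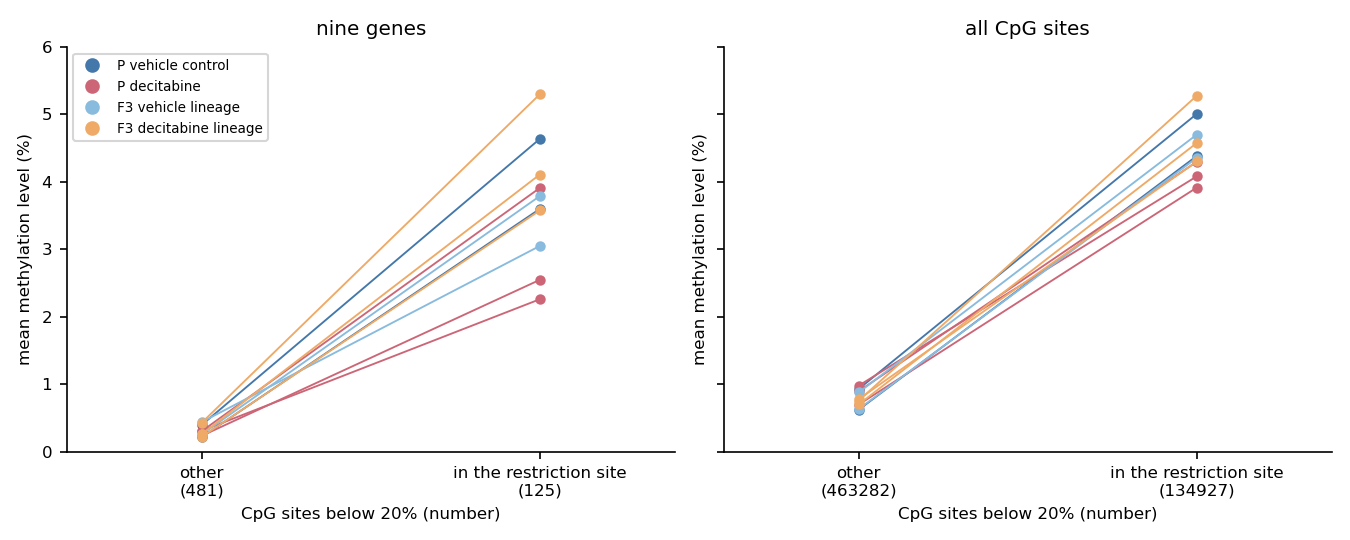
Mean methylation level (y axis, %) of CpG sites below 20%, inside the MspI restriction site and elsewhere (x axis, number of sites in brackets), for the 9 genes and for all CpG sites. Each line is 1 of the 10 animals. Every line rises, from at most 0.44% to at least 2.26% at the 9 genes.

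The strands of a CpG site could be compared where both had at least 10 reads in all animals. Of 280 such sites in the 9 genes, 6 (2.14%) had strands at least 80 points apart, against 1747 of 246486 (0.709%) in the genome, of which 1746 lay in CCGG. The 6 sites formed 3 pairs 49 to 50 bp apart, in introns of Dnmt1 and Uhrf1 and in an untranslated exon of Dnmt3b, and all were in CCGG. With the strands summed they had means of 48.9% to 59.2%, but one strand was at 94.7% to 98.7% and the other at 1.43% to 16.4%. In each pair the site with the lower genome position was high on the plus strand and the other on the minus strand. The other 11 intermediate sites read on both strands had strands 0.28 to 11.1 points apart. The part of the cutting at these sites in the difference between strands was not tested. Without these 6 sites, 46 sites of intermediate level remained in the 9 genes.
Dnmt1, chr9:20920701-20920762, minus strand: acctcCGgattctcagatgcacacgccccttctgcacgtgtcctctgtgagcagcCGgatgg
Uhrf1, chr17:56313832-56313893, plus strand: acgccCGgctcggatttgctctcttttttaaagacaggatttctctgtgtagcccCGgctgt
The capitals in these 2 sequences mark the CpG sites with opposite strands, which stand near the 2 ends of the stretch.

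**Figure D5:**
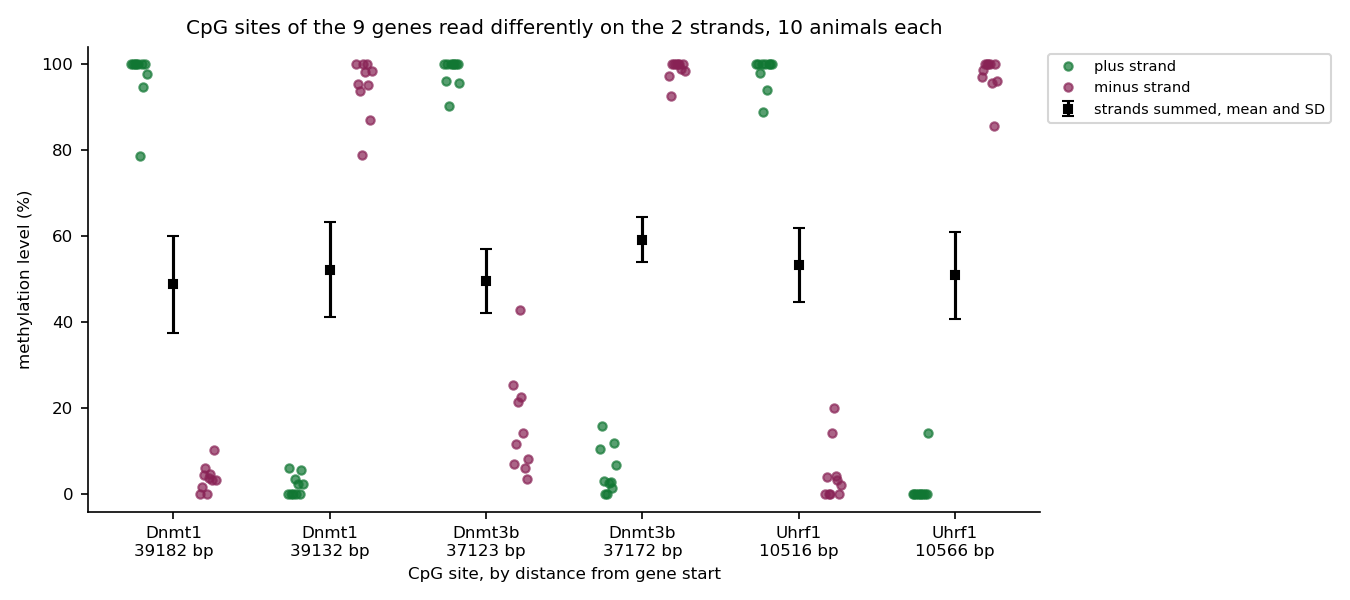
Methylation level (y axis, %) of the 6 CpG sites whose strands differed by at least 80 points, named by gene and distance from the gene start (x axis). Coloured points are the 10 animals on the plus and the minus strand, black squares and bars the mean and SD with the strands summed. The summed means lie between 48.9% and 59.2%, where no value of a single strand was found.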

How the data were processed

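Spermatozoal DNA of 10 mice was analysed by RRBS. The authors trimmed reads with Trim Galore 0.3.3 and cutadapt 1.1, mapped them to mm10 and extracted calls with Bismark 0.10.1, per the submitters' processing notes and the supplement. The deposited files give methylated and unmethylated read counts per CpG cytosine, unfiltered, with strands apart. The notes also name CASAVA 1.8.2.

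From these counts the strands of each CpG site were summed on GRCm38 and sites with at least 10 reads kept. Regions followed GENCODE M21 gene records. Sites were tested by a logistic likelihood-ratio test with Benjamini-Hochberg adjustment over all sites. Regions with at least 3 sites were tested by limma 3.58.1 (R 4.3.3) with a trend on the log2 of methylated over unmethylated region counts, each raised by 1. Single values were compared by exact permutation tests. A low count limits single values: 0 reads allow a level of 3 reads of the total. The 9 genes and all lists were chosen with earlier results of these data known. Named sites were the called ones and, per generation, the 5 with the largest difference among sites with at least 20 reads per animal and groups that did not overlap. Python 3.11.15 with numpy 2.4.6, scipy 1.17.1 and pandas 2.3.3 was used, and the scripts were tested on simulated data. Alternatives were other coverage minimums, tests, thresholds, pseudocounts, thinning, leaving out animals and, chosen after seeing the data, leaving out CCGG sites.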

Additional observations from a re-analysis of the deposited data

Results flagged for a closer look

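In 2 of 88 stretches of CpG sites, against 1.89% of all stretches over the genome, every decitabine treated animal of the P-generation lay on one side of both vehicle-control animals and every animal of the F3 decitabine lineage on the opposite side of both animals of the F3 vehicle lineage. The difference between the generations was not tested for these stretches. At the 39 low sites of Dnmt1 from 7059 bp into the gene record the difference was -0.20 percentage points in the P-generation (0.63% in C8 and 0.76% in C14 against 0.53%, 0.46% and 0.50% in D10, D11 and D13) and 0.19 points in the F3-generation. At 4 sites in an untranslated exon of Dnmt3a from 105501 bp it was -5.50 points in the P-generation (100.0% and 94.6% against 91.9%, 90.7% and 92.9%) and -2.83 points without C8. In the F3-generation it was 8.27 points at these 4 sites (82.6% and 89.6% against 93.8%, 96.0% and 93.2%).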

How the results depend on the processing

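The count of called CpG sites in the 9 genes rested on single animals and on the test. In the P-generation it was 1, and became 0 by the F test with an overdispersion term or limma per site. It was 3 by Fisher's exact test (0.353% of the sites against 0.970% over all sites). The q-values of that test were adjusted only over sites differing by at least 25 points, a weaker correction than in the main test. The count was also 3 at q under 0.05 (0.353% against 0.927%). It was 10 at a difference of at least 10 points (1.18% of the sites against 2.13% over all sites). Leaving out single animals gave 0 to 20 sites, with 20 without C14 (2.34%; 4.43% over all sites), 2 without C8 or D13 and 0 without D11. In the F3-generation the count was 1, and became 0 by the F test, by limma, with reads thinned to the shallowest animal or without CCGG sites (chosen after seeing the data), and 3 at a difference of at least 10 points (0.32%; 0.95% over all sites). Leaving out single animals gave 0 to 4 sites, with 0 without F3C9 or F3D1 and 4 without F3C30 (0.43%; 1.33% over all sites). Both tests that allow for the spread between animals called 0 sites in the whole genome too. Counts of promoters, bodies and differences between generations called by limma were 0 under each alternative run, with a range of 0 to 0 when animals were left out, so a lost call could not be seen. Of 347 recomputed values of 32 promoter and body differences, 300 moved by less than 1 SD between animals, 47 by more, and 47 had the other sign, in 22 of the 32. They lay between -12.1 and 33.6 percentage points. RRBS covered 15.2% of the 7887 CpG sites of these genes in at least 1 animal. The comparisons used fewer, 850 sites in the P-generation and 929 in the F3-generation. With 2 and 3 animals per group, differences at unmeasured sites or of small size were not detectable. No paired analysis was possible because the groups compared within a generation share no animal numbers.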

Other observations

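Partner genes of the 9 were examined in 5 lists of 43 genes, the readers of DNA methylation, the targeting and maintenance partners, base excision repair and deamination, the supply of S-adenosylmethionine, and the uptake and activation of deoxycytidine. Of 31 measured promoters 29 were below 10% in the P-generation and 28 in the F3-generation. limma called 0 promoters and 0 bodies of the lists in either generation, with 3 of 34 bodies (Mbd3, Gadd45a and Gadd45b; 5.61% over all genes) and 0 of 31 promoters (5.47%) in the P-generation, and 1 of 31 promoters (Mbd1; 4.40%) and 0 of 35 bodies (4.05%) in the F3-generation, at an unadjusted p under 0.05. The body of Mbd3, a subunit of the NuRD complex, went from 74.2% in vehicle-control to 59.8% in decitabine treated animals (adjusted p = 0.871). These 4 genes were named after their values were seen.

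At single sites of the lists 21 of 2093 (1.00%) were called in the P-generation, 3 higher and 18 lower in decitabine treated animals, against 0.705% over all CpG sites. They lay in 10 genes, 6 in Ehmt2, which encodes a histone H3 lysine methyltransferase, and 5 in Mbd3. By list there were 9 of 552 sites for the readers, 9 of 763 for the partners, 3 of 349 for repair, and 0 of 224 and 0 of 205 for the other lists. In the F3-generation 1 of 406 sites of the repair list was called, in Smug1 and higher in the decitabine lineage, and 0 of 591 sites of the readers and 0 of 873 of the partners were called, against 0.237% over all CpG sites.

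Of the 9 gene bodies Tet2 varied most over the 10 animals (SD 4.45 percentage points, 70.0% to 83.3%, 15 sites). Of 7260 protein-coding genes with at least 10 body sites, the body levels of Tenm3 (r = 0.928), Lrrc45 (r = 0.922) and Hps4 (r = 0.921) followed it most closely over the 10 animals. These 3 were the highest of many correlations over few animals, which share library and depth differences, and C8 was the lowest animal for Tet2.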
